A study of Saccharomyces cerevisiae with 4 samples.

Results

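The right arm of chromosome III of Saccharomyces cerevisiae carries the mating-type locus MAT and the silent mating-type cassette HMR among genes of many functions. Its genes were taken by systematic name: every probe named YCR was a member except the probes of CIT2, ADY2, PGK1, RIM1, RPS14A and PAU3. This gave 101 of the 107 probes of the arm and of the 6256 gene probes on the array. The arm was picked with the ratios of these samples known, so its counts and medians below are a description, and no test of the arm is given.

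RNA of D10 Small, a translocant derived from the parental strain San I, was hybridised together with pooled WT San I RNA to 4 oligonucleotide arrays with a colour for each. D10 Small had been grown in YPD, a rich glucose medium, with kanamycin at 200 mkg/ml, to an optical density of 0.4 to 0.5, and 4 biological replicates were labelled with Cy3, 1 per array. The WT San I cells were grown in YPD to the same density with no kanamycin named, and their pooled RNA carried Cy5 on every array. Strain, drug and dye therefore changed together and cannot be told apart, and the pool is 1 control sample whose own spread enters no test. The labels give neither the ploidy or mating type of the strains, nor the chromosomes of the translocation, nor how the pool was made. DNA copy number was not measured.

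As background, a budding yeast cell expresses the mating-type genes that lie at MAT. MATalpha encodes alpha1, an activator of alpha-specific genes, and alpha2, a repressor of a-specific genes, while MATa encodes a1. Cells with both alleles form the a1-alpha2 repressor, which shuts off haploid-specific genes. Copies of these genes lie silent at HMR on the right arm and at HML on the left arm, so the cassettes share sequence with MAT and with each other. A probe for alpha1, alpha2 or a1 can therefore report RNA from either the MAT locus or a cassette.

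All values are log2 ratios of D10 Small over the WT San I pool after normalisation within each array, as mean ± SD over the 4 arrays unless an array is named. A gene was called when limma's p, adjusted by Benjamini-Hochberg over the 5794 tested genes, was under 0.05. Of all gene probes, 91.8% to 93.2% were above background in D10 Small, against 86.0% to 89.1% in the pool. The number of arrays limits the precision, and among the 91 tested members the SD over arrays had a median of 0.07.

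Most genes of the III right arm gave less signal in D10 Small than in WT San I. Of the 101 members 91 were tested, and 10 were too dim. Of the tested members 59 were called lower, 14 were called higher and 18 were not called. Over all tested genes 39.6% were called lower and 43.2% higher, and nothing is read from the members' counts because the arm was chosen on this contrast. At least 2-fold lower were 12 members, against a background of 3.05% of tested genes, and at least 2-fold higher were 2 members, against 6.20%. All 4 arrays gave the same sign for 81 of the 91 members.

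The median ratio of the tested members was -0.31, with -0.29, -0.31, -0.29 and -0.27 on arrays 1 to 4. The median of the 5644 tested genes outside chromosome III was 0.03, and its 4 array medians lay between 0.025 and 0.036. The members were spread widely around their median, with quartiles at -0.76 and -0.01 and extremes at -1.70 and 1.23. Ratios of -1 or lower belonged to 13.2% of the members and to 2.50% of the genes outside chromosome III, and ratios above 0.5 to 5.49% and 18.3%. For comparison, the median was -0.80 over 54 tested genes of III left, -0.62 over 228 tested genes of the VII right stretch from YGR033C to YGR278W and -0.52 over 64 tested genes of I left. These arms were also singled out on their ratios, and the differences between them were not tested. The arm's median was -0.55 with plain background subtraction and -0.58 with the scanner's net log2 ratio.

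**Figure D1:**
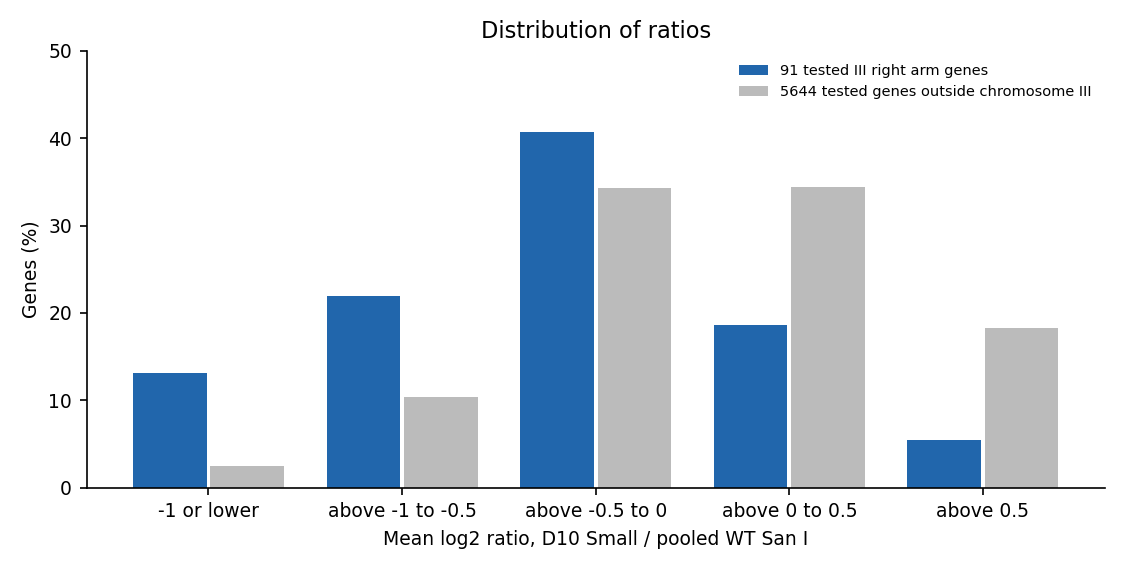
Share of genes (%, vertical axis) in 5 ranges of the mean log2 ratio of D10 Small over pooled WT San I (horizontal axis), for the 91 tested III right arm genes (blue) and the 5644 tested genes outside chromosome III (grey). Blue bars exceed grey ones in the 3 ranges at or below 0, with 13.2% against 2.50% at -1 or lower.

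How low a member stood went with its brightness in the present ratios. The 43 members brighter than the median tested probe had a median ratio of -0.65, with 32 called lower and 7 higher. The 48 dimmer members had a median of -0.12, with 27 lower and 7 higher. Among genes outside chromosome III the brighter and dimmer ones had medians of 0.02 and 0.03. The loess step sets the bulk of genes near 0 at every brightness, so these 2 medians were fixed by the normalisation and are no contrast to the arm. Their quartiles were -0.32 and 0.45 for the brighter and -0.21 and 0.27 for the dimmer genes. III left showed the same split, with -1.24 for its 27 brighter and -0.48 for its 27 dimmer genes. The offset of 50 in the background correction draws the ratios of dim probes toward 0. Without background correction the medians of the brighter and dimmer members were -0.69 and -0.22. Background left in both channels also draws dim ratios toward 0, so this setting cannot show whether the split would remain. With plain subtraction and the net ratio the arm's median was -0.55 and -0.58, and the brighter and dimmer members were not compared there.

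The mating-type loci gave different answers for alpha2, alpha1 and a1. The MATALPHA2 probe read -0.62, -0.66, -0.71 and -0.64 on arrays 1 to 4, or -0.66 ± 0.04, and was called lower. Its log2 signal was 8.39, 8.35, 8.31 and 8.24 in D10 Small, against 9.01, 9.01, 9.01 and 8.88 in the pool. The channels did not overlap. HMRA2, the cassette gene that shares the end of the alpha2 coding sequence, read -0.57, -0.53, -0.58 and -0.51. HMLALPHA2, the silent alpha2 copy on the left arm, read -0.64, -0.66, -0.73 and -0.64. The array values of these 3 probes lay between -0.73 and -0.51. The probes can detect the same RNA, so they are not separate measurements, and with median centring MATALPHA2 and HMRA2 had -0.42 and -0.32.

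The MATALPHA1 probe, for the activator of alpha-specific genes, read -0.04, 0.03, -0.07 and -0.02, which averaged -0.03 ± 0.04 and was not called. It was above background on all 4 arrays in both channels but dim, with log2 signals of 6.03 to 6.12 in D10 Small and 6.04 to 6.15 in the pool. When arrays were centred on their medians, not by loess, the MATALPHA1 ratio was -0.47 and was called lower, and it was also called lower without background correction, at -0.12. HMLALPHA1, the silent copy, averaged 0.01 ± 0.04 and was above background in the pool on 2 arrays. YCR041W and YCR097W-A, reading frames numbered with MAT and HMR, averaged -0.08 ± 0.01 and -0.15 ± 0.04, or -0.27 and -0.37 without background correction. The call of YCR041W was lost when any 1 array was left out.

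HMRA1, which encodes a1 and whose probe may also detect a1 RNA from MATa if that is present, was higher in D10 Small. Its log2 signal was 8.00, 7.81, 7.78 and 8.01 in D10 Small, against 7.53, 7.53, 7.58 and 7.61 in the pool. The ratio was 0.47, 0.28, 0.19 and 0.40 on arrays 1 to 4, or 0.33 ± 0.12, and the channels did not overlap. HMRA1 was the only called member at MAT or HMR with a positive ratio, with 0.55 under median centring, and when a minimum fold of 1.2 was tested it was no longer called. Of the 10 haploid-specific genes that the a1-alpha2 repressor turns off, none of which lies on this arm, all 10 were called higher. Over all tested genes 43.2% were called higher, and the cause of these 10 ratios was not tested. For 4 of the haploid-specific genes (FAR1, HO, NEJ1 and AXL1) no array had the pool above background, and for RME1 only 1 array had. These genes entered the test through D10 Small alone, so their place in the count rests on the channel where they were high. The other 5 had ratios from 1.26 for STE18, a G protein subunit, to 3.38 for STE4, another. STE18 had 2.31 without background correction and 3.58 with plain subtraction.

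**Figure D2:**
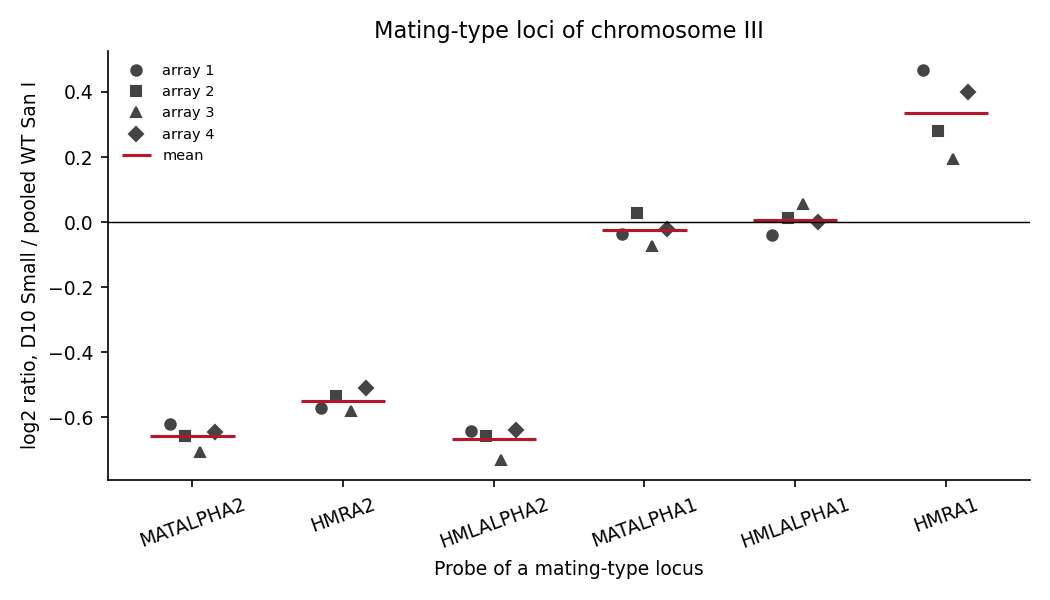
Log2 ratio of D10 Small over pooled WT San I (vertical axis) for 6 probes of the mating-type loci of chromosome III (horizontal axis), with a symbol for each of the 4 arrays and a red line at the mean. The 3 alpha2-related probes lie between -0.73 and -0.51, the alpha1 probes lie around 0, and HMRA1 lies between 0.19 and 0.47.

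FIG2 and BUD5 belong to the same list of mating-type and pheromone members. FIG2, a cell wall adhesin induced by pheromone, was lower with -0.40 ± 0.02, or -0.62 without background correction. BUD5, an exchange factor that places the bud site, was lower with -0.33 ± 0.15, or -0.54 without background correction and -0.96 with the net ratio. Of the 8 members on this list 6 were called lower and 1 higher, beside 39.6% and 43.2% over all tested genes. The list's median was -0.24. That median was -0.46 without background correction, -0.70 with plain subtraction, -0.42 in the authors' table, -0.37 with median centring and -0.77 with the net ratio, and 3 were called lower with a minimum fold of 1.2.

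Along the arm, lower genes were found on both sides of MAT and up to HMR. From the centromere to MAT, 22 of 34 tested members were called lower and 5 higher, with a median of -0.28. Between MAT and HMR the median was -0.44, and 33 of 44 were called lower and 6 higher. With the net ratio these medians were -0.56 and -0.91, and with plain subtraction -0.48 and -0.77. Without background correction the median up to MAT was -0.44. Beyond HMR toward the telomere, 0 of 7 were called lower and 2 higher by limma. At an unadjusted p of 0.05 the count lower was also 0, and the 7 ratios ran from -0.06 to 0.32. These counts depended on the processing: 3 of the 7 were called lower with plain subtraction and with median centring, 2 without background correction and with the net ratio and 1 in the authors' table, while 0 were called higher with a minimum fold of 1.2. The median beyond HMR was 0.09 overall and 0.06, 0.06, 0.00 and 0.00 on the 4 arrays. Over all tested genes 39.6% were called lower and 43.2% higher, and segment differences were not tested.

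The 7 tested genes beyond HMR are mostly dim and belong in part to subtelomeric families whose copies may share signal. EMA35 (YCR100C) had 0.32 ± 0.16, or 0.51 without background correction, and its neighbour YCR099C 0.19 ± 0.10. The glycerophosphoinositol permease gene GIT1 had -0.04 ± 0.03, with the pool above background on 1 array, and AAD3, an aryl-alcohol dehydrogenase homologue, had -0.06 ± 0.08. ADH7, an alcohol dehydrogenase of this end, was above background on 0 arrays in either channel.

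In gene order, the longest run of neighbouring tested members called lower had 12 genes, ran from TUP1 to HMRA2 and held ratios from -1.23 to -0.26. Runs of 8 lower genes lay from CDC10 to ADP1 and from BUD23 to PWP2. Only tested members were counted, so the runs pass over untested probes and genes left out by the rule. The run from CDC10 passes over CIT2 and ADY2. The run from BUD23 passes over the untested YCR049C and holds YCR050C at -0.09, with the pool above background on 1 array. Over all tested genes 39.6% were called lower. Between PET18 (YCR020C) and NPP1 (YCR026C), 5 of 10 tested members were called higher and 1 lower, beside 43.2% and 39.6% over all tested genes. In that stretch 4 were called lower with median centring, and 3 with plain subtraction and with the net ratio. From YIH1 (YCR059C) to BUD31 (YCR063W) all 4 tested members were called higher, beside the same 43.2%, with ratios from 0.08 to 0.34. BUD31 was among the called members nearest the threshold, and it had -0.15 with median centring. The runs and both stretches were picked with the ratios known, so nothing is read from their counts. SSK22, at 1.09, stood alone between RSA4 at -0.83 and SOL2 at -0.65.

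**Figure D3:**
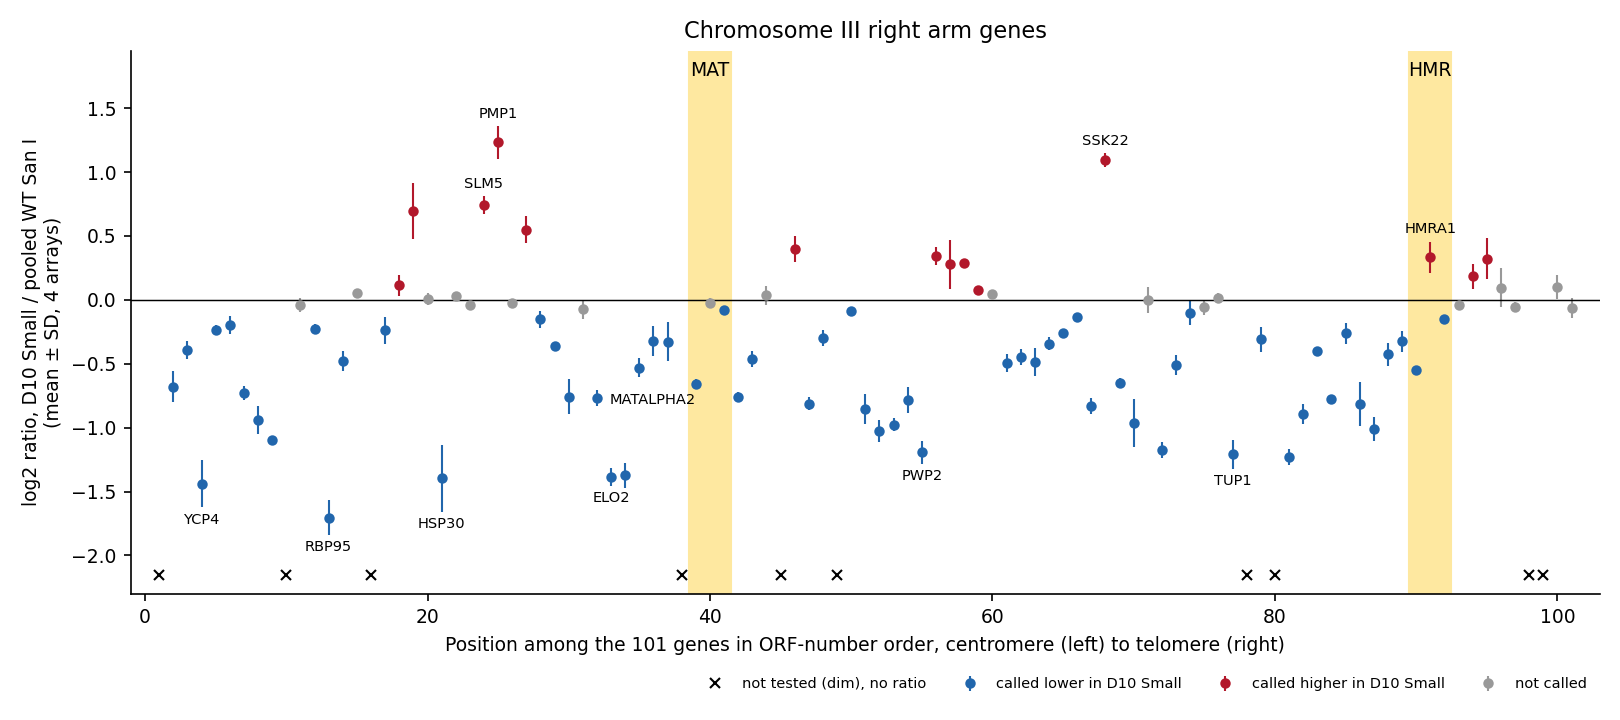
Mean log2 ratio of D10 Small over pooled WT San I (vertical axis, bars ± SD over 4 arrays) for the members in the order of their ORF numbers from centromere to telomere (horizontal axis). Blue points were called lower, red points higher and grey points not called, crosses mark the 10 untested members and carry no ratio, and yellow bands mark MAT and HMR. Points below 0 prevail up to HMR, and PMP1 at 1.23 and SSK22 at 1.09 stand highest.

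Genes of ribosome assembly and RNA processing held the lowest median of the role lists. Of 10 members 7 were called lower and 2 higher, with a median of -1.01. Over all tested genes 39.6% were called lower and 43.2% higher, and over the 91 tested members 64.8% and 15.4%. The counts of each role list are a description beside those shares, and differences between lists were not tested. The lists overlap: YIH1 is counted here and among the kinase genes, and BUD5 among the mating-type and the budding genes. The lowest ratio of the whole arm was that of RBP95, a factor of large ribosomal subunit assembly, which read -1.85, -1.74, -1.52 and -1.70 on arrays 1 to 4. Its log2 signal ran from 8.00 to 8.14 in D10 Small, against 9.66 to 9.86 in the pool, without overlap, and it was 3.26-fold lower. RRP43, a core subunit of the RNA exosome, read -1.42, -1.40, -1.23 and -1.45.

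PWP2, a component of the small-subunit processome, was lower with -1.19 ± 0.09, and PAT1, an activator of mRNA decapping, with -1.18 ± 0.06. The less characterised YCR087C-A was lower with -1.23 ± 0.06. The 18S rRNA methyltransferase BUD23 and the large-subunit assembly factor RSA4 had -0.81 ± 0.05 and -0.83 ± 0.06. SRD1, a gene linked to rRNA processing, had 0.05 ± 0.03 and was not called. The pool was not above background for SRD1 or YCR022C, so their fold of 1.02 is a bound in form only. Neither was called, and no increase is read from it. With median centring the sign turned, to -0.51 for SRD1 and -0.50 for YCR022C, and other dim members also fell in that setting. YIH1, which restrains activation of the kinase Gcn2, was higher with 0.34 ± 0.07.

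Among transcription and chromatin genes 7 of 10 were called lower and 0 higher by limma, beside 39.6% and 43.2% over all tested genes. Their median was -0.63, or -0.98 with the net ratio. At an unadjusted p of 0.05, RDS1 was higher with 0.10 ± 0.09. TUP1 encodes the corepressor that works with alpha2 at a-specific genes and with a1-alpha2 at haploid-specific genes. Its log2 signal was 9.66, 9.72, 9.72 and 9.62 in D10 Small, against 11.00, 10.98, 10.90 and 10.70 in the pool, and its ratio was -1.21 ± 0.11. RSC6, a subunit of the RSC chromatin remodeller, had -1.03 ± 0.08. CDC39, the scaffold of the Ccr4-Not complex, had -1.01 ± 0.09, which was -1.39 without background correction. The Set3 complex subunit SNT1 and the TFIID subunit TAF2 were lower with -0.77 ± 0.06 and -0.76 ± 0.04. HTL1, another gene of the RSC complex, had 0.01 ± 0.05 and was not called, and its ratio was -0.36 with median centring.

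Of 7 genes of budding, septins and actin, 6 were called lower and 0 higher by limma, beside 39.6% and 43.2% over all tested genes. At an unadjusted p of 0.05 the count higher was also 0, and the median was -0.68. The endocytic protein genes RVS161 and ABP1 had -0.94 ± 0.11 and -0.89 ± 0.08. SYP1, which acts in endocytosis and at septins, had -0.76 ± 0.14, and the septin gene CDC10 had -0.68 ± 0.12. BPH1 was the member not called, with -0.07 ± 0.07. DNA repair and chromosome genes were called lower for 3 of 4, beside the same 39.6%, and 0 were higher with or without adjustment of limma's p. The mismatch repair gene MSH3 had -0.81 ± 0.17, or -1.29 without background correction. RAD18, the ubiquitin ligase of PCNA, had -0.44 ± 0.06, or -0.72 in the authors' table, and the monopolin gene CSM1 -0.31 ± 0.10, which with median centring was -0.08 and not called. POL4, a polymerase of end joining, had -0.04 ± 0.06 and was not called.

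Membrane, lipid and secretory genes held the highest ratio of the arm, that of PMP1, beside many lower ones. Of 12 members 9 were called lower and 2 higher, with a median of -0.41, beside 39.6% and 43.2% called over all tested genes. HSP30, a stress-induced plasma membrane protein, read -1.50, -1.48, -1.60 and -1.01, the widest spread among the members. The fatty acid elongase ELO2 read -1.45, -1.41, -1.41 and -1.29, and the transporter ADP1 had -1.10 ± 0.02. In the other direction PMP1, a small regulatory subunit of the plasma membrane proton pump, was 2.35-fold higher. Its log2 signal was 10.49, 10.35, 10.47 and 10.37 in D10 Small, against 9.06, 9.18, 9.31 and 9.20 in the pool, with no overlap. NPP1, a nucleotide pyrophosphatase, had 0.55 ± 0.10.

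**Figure D4:**
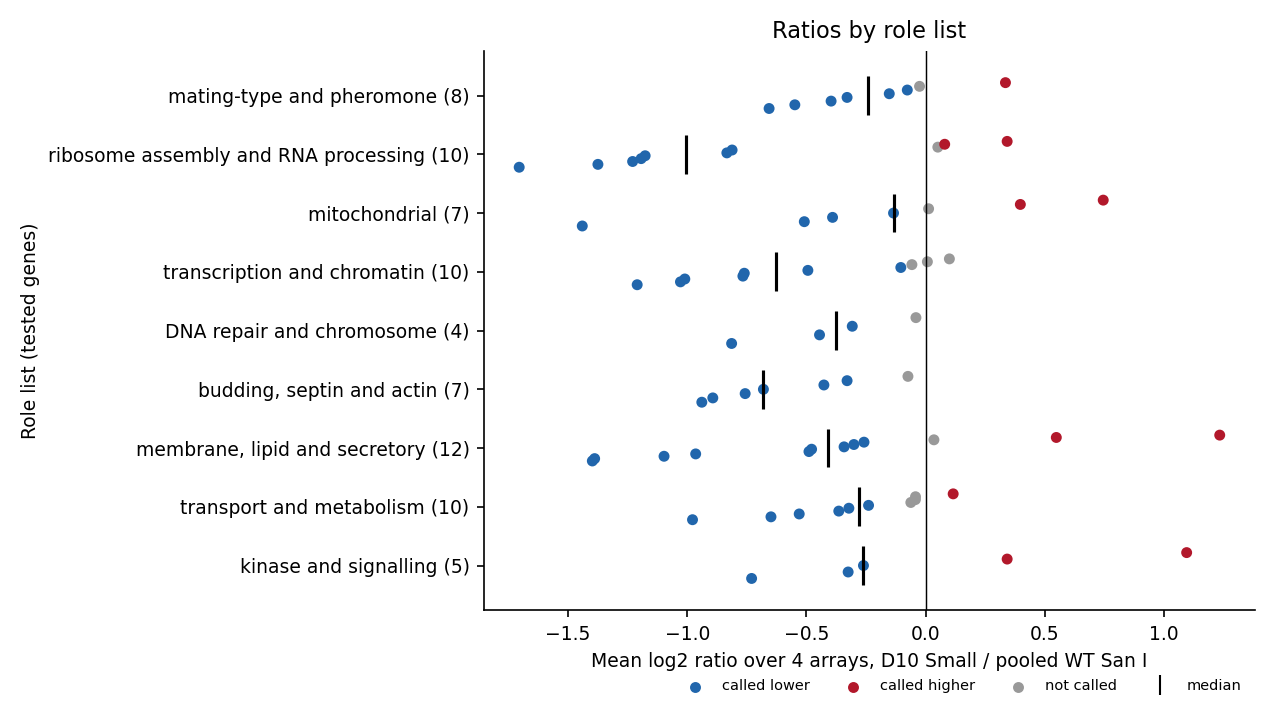
Mean log2 ratio of D10 Small over pooled WT San I (horizontal axis, 4 arrays) of each tested gene on 9 role lists (vertical axis, tested genes in parentheses), coloured by call, with a black bar at each list's median. Ribosome assembly and RNA processing has its median at -1.01, and the mitochondrial list has its median at -0.13 with genes on both sides of 0. The lists overlap in YIH1 and BUD5.

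Mitochondrial members went both ways, with 4 of 7 called lower and 2 higher, beside 39.6% and 43.2% over all tested genes. Their median was -0.13, and it turned to 0.06 with median centring. The flavodoxin-like protein gene YCP4 was lower with -1.67, -1.44, -1.43 and -1.22 on the 4 arrays, while SLM5, the mitochondrial asparaginyl-tRNA synthetase, was higher with 0.80, 0.78, 0.76 and 0.64. Of the mitochondrial ribosomal protein genes, IMG1 was higher with 0.40 ± 0.10, MRPL32 was lower with -0.39 ± 0.07, or -0.17 with median centring, and IMG2 was lower with -0.13 ± 0.03, or 0.06 with median centring. The phosphatase gene PTC6 had -0.51 ± 0.08, and the thioredoxin gene TRX3 had 0.01 ± 0.04 and was not called.

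Transport and metabolism genes were called lower for 6 of 10 tested members and higher for 1, beside 39.6% and 43.2% over all tested genes. Their median was -0.28. With the net ratio the counts were 9 and 0, and the median was -0.45. The threonine synthase gene THR4 read -1.04, -0.98, -0.91 and -0.98. SOL2, a phosphogluconolactonase homologue, had -0.65 ± 0.04, the ribokinase gene RBK1 -0.53 ± 0.08 and the pantothenate transporter gene FEN2 -0.36 ± 0.03, which was -0.59 without background correction. Of 5 kinase and signalling genes 3 were lower and 2 higher, beside the same shares over all tested genes. The 2 higher ones were SSK22 and YIH1, which is also counted on the ribosome assembly and RNA processing list. SSK22, a kinase of the osmotic stress pathway, was 2.14-fold higher, with 1.17, 1.10, 1.08 and 1.03 on arrays 1 to 4, while SAT4, a kinase of potassium transport, had -0.73 ± 0.05 and OCA4 had -0.32 ± 0.08.

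MAK31, a subunit of an N-terminal acetyltransferase, was on none of the lists and was higher with 1.02, 0.63, 0.58 and 0.54. TVS1, also on no list, had 0.29 ± 0.03. The 20 tested members on no list had a median of -0.04, with 9 called lower and 5 higher, beside 39.6% and 43.2% over all tested genes. Of the 10 untested members, 6 are not named in the R64 gene table, and the other 4 are YCR001W, RRT12, YCR085W and ADH7.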

How the data were processed

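Each deposited array file lists, per the file headers, linear spot intensity and local background for both channels, with 7 spots for each gene probe. The sources used here do not name the scanning program. The 4 arrays share 1 slide, so no slide effect could be fitted. The authors' value table holds log2 ratios whose normalisation is not stated. Over genes, its columns and the present ratios had r from 0.965 to 0.972, which sets their direction, and the column medians were -0.000293, -0.00570, -0.00121 and 0.00265.

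Mean intensities were corrected with limma 3.58.1 (R 4.3.3) by normexp with an offset of 50 and normalised by loess within each array, control spots at weight 0. Spots beyond the quartiles of their probe by 1.42 interquartile ranges were left out, and the others averaged. A spot was above background at 2.6 SD over the mean of the 153 negative controls, and a probe with at least 4 such spots. Testing required a probe above background in either channel on 3 or more arrays, and 462 genes failed this. Ratios were fitted by lmFit and eBayes with an intercept only. Channel signals are log2 values after loess and Aquantile scaling. In a bound, the dim channel stands at its own signal or at the lowest signal above background, whichever is higher.

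Symbols came from the R64 table by systematic name, for 93 of the 101 members, and gene order from ORF numbers. Members, role lists and tests were chosen with earlier results of these data known. Named are the mating-type probes, the 10 lowest and 10 highest members, up to 4 of largest ratio per list and those measured in 1 channel. Other genes were chosen after their values were seen: TAF2, BUD5, BUD23, RSA4, MRPL32, IMG2, TRX3, HTL1, BPH1, PET18, BUD31, RDS1, GIT1, AAD3, YCR099C and ADH7. On simulated arrays of this comparison with 5944 genes fitted, 100% of 100 genes changed 2-fold and 95% of 100 genes changed by 0.5 were called, as were 0.104% of unchanged genes. The median fitted sizes were 0.86 for a true log2 change of 1 and 0.40 for a true 0.5. The changed genes were not drawn from the dimmest probes, and far fewer genes changed than were called in the data. Neither a dye effect of single genes nor the pool's error was simulated. Sequences were not used here.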

Additional observations from a re-analysis of the deposited data

Results flagged for a closer look

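Among 53 sets of 4 array values examined (the ratios of the 49 genes named by rule, and medians of the arm and its segments), 2 held an array that lay far from the other 3, and chance alone flags about 1 set in 20. PMP1 read 1.43 on array 1, against 1.18, 1.16 and 1.17 on the others. ADP1 read -1.12 on array 4, against -1.09 on each of the others, a difference smaller than the median SD of the members.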

How the results depend on the processing

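The arm's median was negative under every alternative tried. It was -0.39 without background correction, -0.55 with plain subtraction, -0.36 with median centring, -0.33 with loess fitted outside chromosome III and the shifted arms VII right, XV left and I left, -0.44 in the authors' value table, -0.58 with the scanner's net log2 ratio, -0.24 without the filter on dim probes, -0.33 with both channels above background, -0.35 without the mating-type and subtelomeric members, and -0.32 to -0.28 when 1 array was left out. The same settings in the same order, where the value moved by more than the spread between arrays, gave -0.44, -0.48, -0.35, -0.31, -0.46, -0.56, -0.23 and -0.33 from centromere to MAT, with -0.30 to -0.24 when 1 array was left out. Between MAT and HMR the median was -0.63 without background correction, -0.77 with plain subtraction, -0.37 with median centring, -0.68 in the authors' value table, -0.91 with the net ratio and -0.37 without the dim filter, and -0.46 to -0.41 when 1 array was left out. Beyond HMR it was 0.14, 0.13, 0.21, 0.057 and 0.038 for no correction, plain subtraction, the authors' table, the net ratio and no dim filter, and 0.020 to 0.13 when 1 array was left out, the lowest without array 1.

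Members at least 2-fold lower numbered 22 with plain subtraction and 28 with the net ratio. With a minimum fold of 1.2, 6 members were called higher, 3 of the mating-type list lower and 1 of the kinase list lower. HMRA1, YCR041W, YCR097W-A, YCL068C, YIH1, EMA35, TVS1, CSM1 and OCA4 were then not called. Requiring both channels above background left 5 haploid-specific genes called higher, since fewer were tested. With median centring HMLALPHA1 was -0.44, SRD1 -0.51 and YCR022C -0.50, with the sign turned, and the cause was not tested. Of the 42 members named by rule and called, ratios were over 1.5 times as large for 6 without background correction, 11 with plain subtraction, 10 with the net ratio and 9 in the authors' table, and median centring made 4 larger and 5 smaller by as much. Without any 1 array, none moved so far. No paired analysis was possible because each array sets 1 replicate against the same pool. Depth is limited by signal over background, which left 10 members untested and 5 with the pool above it on at most 1 array.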
